A study of Mus musculus with 4 samples.

Results

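The genes described here are Lyz1 and Lyz2, which encode the 2 mouse lysozymes, and 6 genes for surface or lysosomal proteins of myeloid cells, Csf1r, Itgam, Cd14, Cd68, Fcer1g and Tyrobp. They are 8 of 12393 named genes on the array. Every probe set that the platform annotation maps to exactly 1 of these genes was taken, which gave 12 of 22626 probe sets. The main probe set of a gene is the one with the highest mean over the 4 arrays. The main probe sets were thus chosen by their measured levels, and the genes themselves were proposed with earlier results of these data known, so their levels and differences are given as a description.

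RNA came from CD8 T cells of the spleen, taken from female C57BL/6 mice aged 8 to 12 weeks. One group was injected intraperitoneally with the dioxin TCDD at 10 µg/kg and the other with the solvent DMSO, and both were killed 24 h later. TCDD activates the aryl hydrocarbon receptor (AHR). Each group has 2 arrays, and the design text gives 4 mice for a group with their spleen cells pooled before the cells were purified above a stated 99% by FACS. Nothing says that the 2 arrays of a group hold separate pools, so any p-value measures the spread between arrays, which may be technical. Precision is limited throughout by the small number of arrays.

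Lysozyme is a secreted enzyme that cuts the peptidoglycan of bacterial cell walls. In the mouse Lyz2 is the lysozyme of macrophages and neutrophils and Lyz1 that of intestinal Paneth cells. The receptors and adaptors in the set mark monocytes, macrophages, granulocytes and, for the adaptors, NK cells. Resting T cells are not known for lysozyme, CSF1R or CD14, and CD8 T cells share with myeloid cells some adaptors and β2 integrins. In bulk RNA, fewer cells of a type and less RNA per cell cannot be told apart.

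The deposited values are RMA values on a log2 scale, without a true zero, in which a low value does not separate weak from absent expression. Array medians lay between 5.97 and 6.03, and the median of the probe set means was 6.01. By main probe set, 7390 of all 12393 genes had a mean above that median. A mean above it thus does not by itself show that a cell type was present. All 13 genes measured on the list for CD8 and the T cell receptor had a mean above that median. Markers of other cells were above it too: 5 of 6 MHC class II genes, 7 of 14 dendritic cell, 7 of 14 neutrophil, 10 of 24 monocyte and macrophage, 4 of 10 B cell and 3 of 8 NK cell markers. Of the monocyte and macrophage list, Adgre1, C1qa, Cebpb, Clec7a, Fn1, Lgals3, Lst1, Ms4a7, Msr1 and Slc40a1 were above it, and the other 14, among them Cd163, Mrc1, Mertk, Fcgr1, C1qb and C1qc, were below. Of the 8 genes, 6 had a main probe set above the median, and Itgam and Cd68 were below it.

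Lyz1, Lyz2 and Cd68 had both TCDD arrays above both DMSO arrays, the groups overlapped for the other 5 genes, and no gene was lower throughout. Over all genes 12.9% measured higher in both TCDD arrays and 12.0% lower in both. The median difference of TCDD minus DMSO over the 8 genes was 0.17, beside 0.01 over all genes. Lyz1 had the largest positive difference of all 12393 genes by main probe set, and 52 genes had a larger one than Lyz2. The main Lyz1 probe set is marked for possible cross hybridisation, and its difference was 0.56 without DMSO replicate 1. The unmarked Lyz1 probe set differed by 0.10, with overlapping groups. No gene of the set passed the limma test over all probe sets (adjusted p = 0.997 or more), where 0.00% of probe sets were called. At an unadjusted p under 0.05 it counted 1 of the 8, Lyz1, and 2.11% of all genes. That count was 0 with the replicate number as a block, where 612 of 22626 probe sets were under 0.05. It was also 0 without the probe sets marked for cross hybridisation, where 370 of 19645 were. The count of 3 genes changed with single arrays: with 1 array of a group set against both of the other, it was 7 without TCDD replicate 1, where 43% of all genes measured higher, and 5 without DMSO replicate 2, where 25.3% did.

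**Figure D1:**
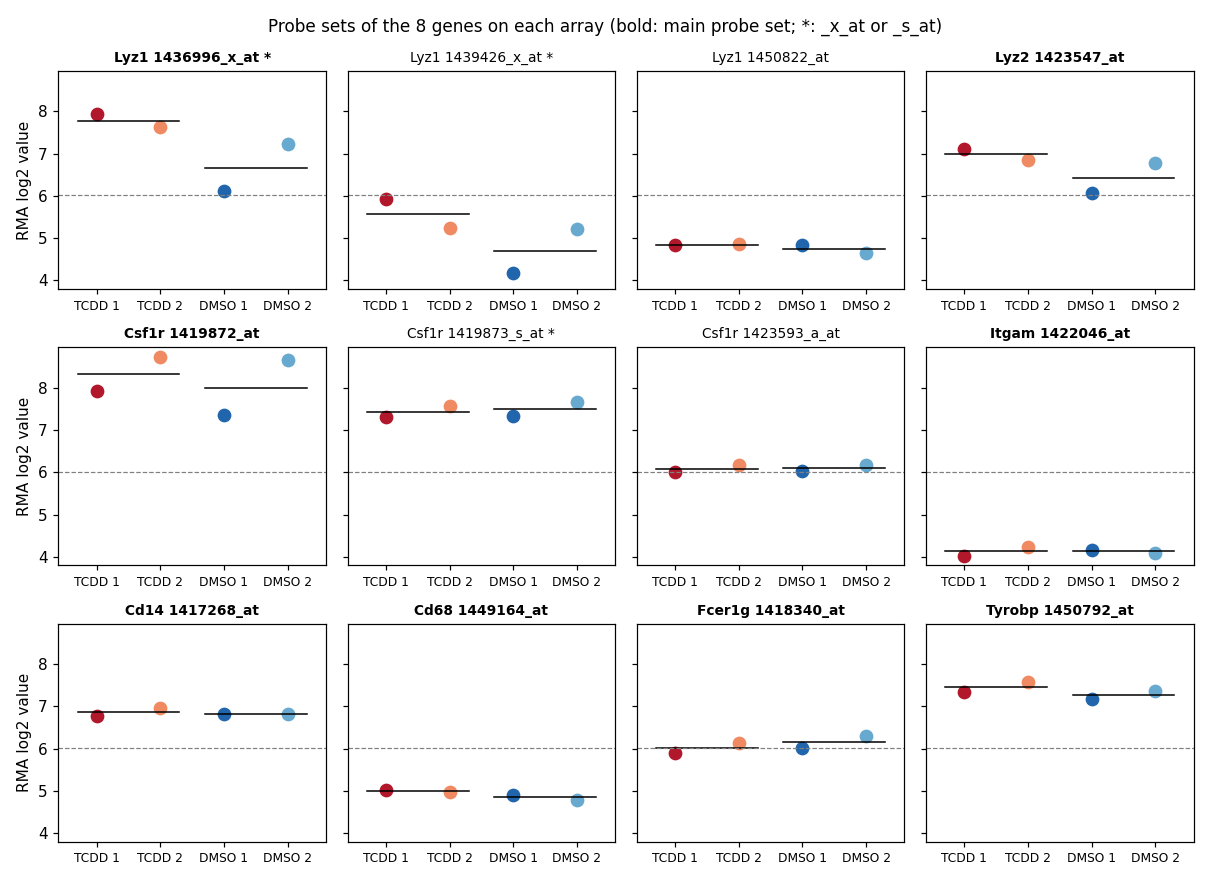
RMA log2 values (vertical axis) of the 12 probe sets on the TCDD arrays (left, red and orange) and the DMSO arrays (right, blue), with black lines at the group means, a dashed line at the median of all probe set means, main probe sets in bold and _x_at or _s_at probe sets starred. DMSO replicate 1 stands lowest in the starred Lyz1 panels and in that of Lyz2, at 6.12, 4.18 and 6.07, while Itgam, Cd14, Cd68 and the third Lyz1 probe set lie nearly flat.

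The main probe set of Lyz1, 1436996_x_at, measured 7.94 and 7.62 in TCDD replicates 1 and 2, with 6.12 and 7.22 in DMSO replicates 1 and 2. Both TCDD arrays were high, DMSO replicate 2 stood close below them, and DMSO replicate 1 stood far below all 3. The difference was 1.11, or 2.16-fold, with 95% limits of 0.10 and 2.12. Without DMSO replicate 1 it was 0.56, and without DMSO replicate 2 it was 1.66.

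The ending _x_at marks a probe set with probes that can bind other transcripts too. A second Lyz1 probe set of that kind, 1439426_x_at, lay below the median of all probe sets and showed the same order, at 5.92 and 5.24 in the TCDD replicates, against 4.18 and 5.22 in the DMSO replicates. Its difference was 0.88 with limits of −0.21 and 1.97, and 0.36 without DMSO replicate 1. The third Lyz1 probe set, 1450822_at, carries no such mark. It measured 4.83 and 4.86 in the TCDD arrays and 4.84 and 4.65 in the DMSO arrays, well below the median of all probe sets, with overlapping groups and a difference of 0.10. Only the probe sets open to cross hybridisation thus showed the difference of Lyz1, and the mean of all 3 gave 0.70.

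Lyz2 had a single probe set, 1423547_at, without a mark for cross hybridisation. It measured 7.11 and 6.85 with TCDD, against 6.07 and 6.78 with DMSO. As for Lyz1, DMSO replicate 1 was the low array, and DMSO replicate 2 lay only just below the lower TCDD array. The difference was 0.555, or 1.47-fold, with limits of −0.14 and 1.25, and it was 0.20 without DMSO replicate 1 and 0.91 without DMSO replicate 2. Whether the _x_at probe sets of Lyz1 took their signal from Lyz1, Lyz2 or both cannot be told apart from these values.

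Ranked by how far DMSO replicate 1 lay below the other 3 arrays, Lyz1 and Lyz2 were the first 2 of the 7390 genes above the median, with gaps of 1.1 and 0.71. This ranking was looked up after the low values in that array had been seen, and it only describes them. The Lyz1 gap is that of its main, _x_at probe set. Gaps of at least 1.1 below the other 3 arrays were held by 0 genes in TCDD replicate 1, 19 in TCDD replicate 2 and 2 in DMSO replicate 2. Gaps of at least 0.71 were held by 17, 99 and 31 genes in those arrays.

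Lyz1 and Lyz2 lie side by side on chromosome 10 with 0 protein-coding genes between them in RefSeq. Their upstream sequences are shown because the _x_at probe sets of Lyz1 had the same order of arrays as Lyz2 and because they show how alike the neighbours are. The unmarked Lyz1 probe set did not share that order, and regulation of the 2 genes was not tested. Both are from RefSeq on the assembly GRCm38.p6, on the minus strand, and cover the 250 bases before the annotated start, at chr10:117292869-117293118 for Lyz1 and chr10:117282273-117282522 for Lyz2. Capitals mark runs of at least 15 bases that are identical in both.
Lyz1: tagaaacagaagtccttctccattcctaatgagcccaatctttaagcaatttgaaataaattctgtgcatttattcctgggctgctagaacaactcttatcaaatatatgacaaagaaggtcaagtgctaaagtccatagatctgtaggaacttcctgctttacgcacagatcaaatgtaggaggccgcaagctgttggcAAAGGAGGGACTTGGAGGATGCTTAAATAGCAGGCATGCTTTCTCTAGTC
Lyz2: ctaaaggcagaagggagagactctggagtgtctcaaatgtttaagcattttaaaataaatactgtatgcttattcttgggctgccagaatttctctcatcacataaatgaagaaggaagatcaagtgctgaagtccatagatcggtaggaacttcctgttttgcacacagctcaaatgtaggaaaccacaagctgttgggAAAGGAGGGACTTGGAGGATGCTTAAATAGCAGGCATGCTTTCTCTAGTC
In a global alignment 200 of 248 aligned bases were identical, or 80.6%, and 92 of the 100 bases nearest the start of Lyz1. The last 50 bases before the start form 1 identical run.

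Promoter windows of 5 of the 8 genes, each with 250 bases before and 50 after the start, were searched on both strands for GCGTG, the core of the AHR binding element, and GAGGAA, a purine box bound by the myeloid factor PU.1. Csf1r, Cd14 and Tyrobp were left out of the search, so nothing is known here of these letters in their promoters. GCGTG was found in 1 of the 5, Fcer1g, and in 32.4% of 32851 promoters of the same length. GAGGAA was found in Itgam and Cd68, and in 28.3% of all promoters. The Lyz1 and Lyz2 windows held neither string of letters. The site of Fcer1g begins 12 bases before its start, within chr1:171234350-171234599 on the minus strand of GRCm38.p6, and is shown in capitals as the only AHR core found in the 5 windows.
Fcer1g: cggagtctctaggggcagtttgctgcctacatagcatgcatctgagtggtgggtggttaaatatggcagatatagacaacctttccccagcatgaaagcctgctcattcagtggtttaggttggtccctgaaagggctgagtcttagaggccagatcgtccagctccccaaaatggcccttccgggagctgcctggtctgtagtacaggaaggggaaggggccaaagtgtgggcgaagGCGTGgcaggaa

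Fcer1g and Tyrobp encode short adaptor proteins, the common Fc receptor γ chain and DAP12, which lend an activating motif (ITAM) to receptors that have none and signal through SYK or ZAP70. Fcer1g measured 5.90 and 6.13 with TCDD, against 6.02 and 6.31 with DMSO, close to the median of all probe sets. Its groups overlapped, and the difference was −0.15 with limits of −0.56 and 0.26, the only negative one among the 8 main probe sets. Without DMSO replicate 2 it was −0.005, and without DMSO replicate 1 it was −0.295. Tyrobp measured 7.35 and 7.58 with TCDD, against 7.18 and 7.36 with DMSO. DMSO replicate 2 lay just above TCDD replicate 1, so the groups overlapped by 1 array. The difference was 0.195 with limits of −0.16 and 0.55, and it kept its sign with each array left out, between 0.08 and 0.31.

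Of 22 measured receptors and kinases that work with these adaptors, 4 measured higher in both TCDD arrays, 3 lower in both and 15 overlapped. Over all genes 12.9% measured higher in both and 12.0% lower, the shares to set beside the counts of each list below. The median difference of these 22 genes was −0.015, with 0 past limma. Plcg2, a phospholipase downstream of SYK, measured 8.36 and 8.21 with TCDD, against 8.07 and 7.86 with DMSO. The Fc receptor gene Fcgr4 differed by 0.145 with overlapping groups. The kinase genes Syk and Zap70 differed by 0.04 and −0.005.

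Csf1r encodes the receptor for CSF1 and IL-34, the growth factors that maintain macrophages. Its main probe set, 1419872_at, measured 7.92 and 8.72 in TCDD replicates 1 and 2, with 7.35 and 8.65 in DMSO replicates 1 and 2. The arrays numbered 2 were the high ones in both treatments, and the groups overlapped. The difference of 0.32 had limits of −1.001 and 1.64, and it turned to −0.33 without DMSO replicate 1 and to −0.08 without TCDD replicate 2. The other probe sets of the gene were nearly level. The one marked for cross hybridisation, 1419873_s_at, measured 7.30 and 7.57 with TCDD and 7.34 and 7.67 with DMSO, and 1423593_a_at measured 6.00 and 6.16 with TCDD and 6.03 and 6.16 with DMSO. Their differences were −0.07 and −0.015, against the sign of the main probe set, and the arrays numbered 2 were again the higher in both treatments.

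Among the 12 measured genes for CSF1R ligands and myeloid growth factor receptors, 2 measured higher in both TCDD arrays, 2 lower and 8 overlapped, with a median difference of 0.0075 and 0 past limma. The adaptor gene Grb2 measured 6.65 and 7.11 with TCDD, against 7.43 and 7.15 with DMSO, and the receptor gene Flt3 differed by 0.31 with overlapping groups. Csf1 itself differed by −0.01. Spi1, which encodes PU.1, stood below the median of all probe sets and differed by 0.02.

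Cd14, the coreceptor that hands lipopolysaccharide to TLR4, measured 6.78 and 6.96 with TCDD, against 6.82 and 6.81 with DMSO. Its TCDD arrays lay on either side of both DMSO arrays, and the difference of 0.055 had limits of −0.25 and 0.36. Of 9 measured genes of TLR4 and CD14 signalling, 3 measured higher in both TCDD arrays, 1 lower and 5 overlapped, with a median difference of 0.07 and 0 past limma. The kinase gene Irak1 measured 8.82 and 8.73 with TCDD, against 8.49 and 8.22 with DMSO, and the adaptor gene Myd88 8.08 and 8.23 with TCDD, against 8.02 and 7.73 with DMSO. IRAK1 and MYD88 serve the interleukin 1 family receptors as well as TLRs. Tlr4 and its partner Ly96 were below the median of all probe sets, with differences of −0.03 and 0.10.

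Itgam encodes the αM chain of the integrin Mac-1, which pairs with the β2 chain of Itgb2. Its probe set stood near the low end of the distribution, where 9.53% of all probe sets had a lower mean. It measured 4.03 and 4.22 with TCDD and 4.15 and 4.10 with DMSO, and the difference was 0, within limits of −0.31 and 0.31. Itgb2, which T cells express as part of LFA-1, measured 10.06 and 10.30 with TCDD, against 10.34 and 10.32 with DMSO. Of 7 measured β2 integrin partners 1 measured higher in both TCDD arrays, 1 lower and 5 overlapped, with a median difference of 0.11 and 0 past limma. The ligand genes Icam1 and Icam2 differed by 0.355 and 0.255, both with overlapping groups.

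Cd68 encodes macrosialin, a heavily glycosylated protein of late endosomes and lysosomes in macrophages. It measured 5.03 and 4.97 with TCDD, against 4.91 and 4.79 with DMSO. The groups did not overlap, but the gap between them was 0.06 and the probe set lay below the median of all probe sets. The difference of 0.15 had limits of −0.13 and 0.43. Among 14 measured lysosome genes 1 measured higher in both TCDD arrays, 3 lower and 10 overlapped, with a median difference of −0.07 and 0 past limma. The protease gene Ctss measured 10.14 and 10.21 with TCDD, against 10.39 and 11.07 with DMSO. The progranulin gene Grn measured 9.81 and 9.49 with TCDD, against 9.46 and 9.06 with DMSO. Over these 5 lists of partner genes limma counted 1 gene at an unadjusted p under 0.05, Irak1, beside 2.11% of all genes.

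**Figure D2:**
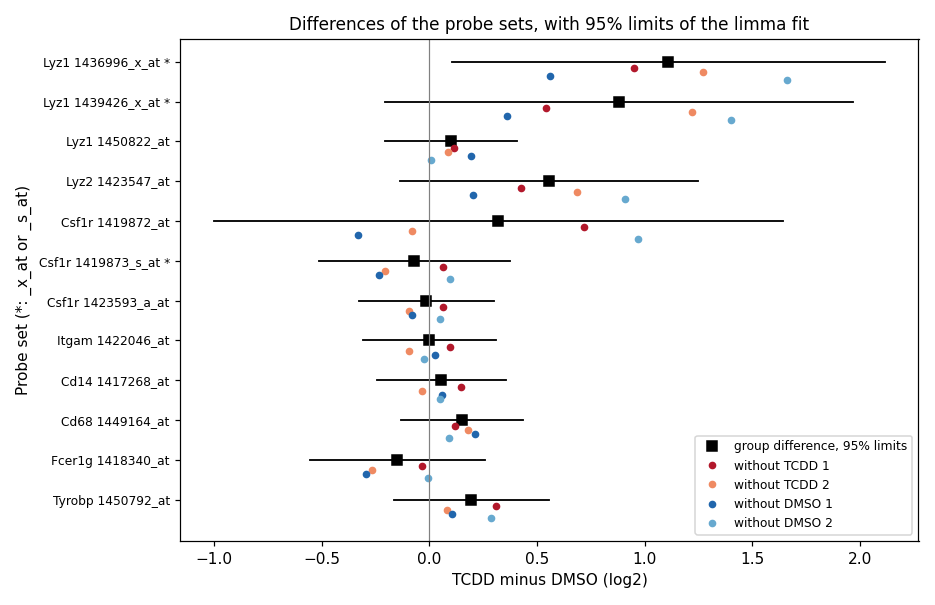
Differences of TCDD minus DMSO (horizontal axis, log2) for the 12 probe sets, with squares for the group difference, lines for its 95% limits in the limma fit, and coloured points for the difference with 1 array left out. For the main Lyz1 probe set the points run between 0.56 and 1.66, and for the main Csf1r probe set they lie on both sides of 0, between −0.33 and 0.97.

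Markers of other cells varied between the same arrays, and their order was not that of the lysozymes. Monocyte and macrophage markers averaged 5.77 and 5.86 in the TCDD arrays, against 5.72 and 5.93 in the DMSO arrays. Their median difference was −0.02, with 3 of 24 measured higher in both TCDD arrays and 1 lower. The shares over all genes were 12.9% and 12.0%, here and for the marker lists that follow. Lgals3, which encodes galectin-3, measured 8.09 and 7.60 with TCDD, against 6.99 and 6.58 with DMSO, and the iron exporter gene Slc40a1 measured 6.08 and 6.61 with TCDD, against 5.96 and 7.54 with DMSO. Activated T cells can express galectin-3 too. DMSO replicate 1 had the lowest mean of the monocyte and macrophage list, by 0.05. The lysozymes were lowest there too, by 1.1 and 0.71, but those are gaps of single genes, not of a list mean. The neutrophil and NK cell lists also had their lowest mean in that array. The part of monocytes and macrophages in the lysozyme values was not tested.

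Neutrophil markers, of which 7 of 14 had a mean above the median of all probe sets, averaged 5.73 and 5.96 in the TCDD arrays, against 5.70 and 6.39 in the DMSO arrays. DMSO replicate 2 had the highest mean of the list. The calprotectin genes S100a8 and S100a9 measured 8.67 and 7.80 there, against 5.94 or less and 5.63 or less in each of the other arrays. Csf3r, Ctsg, Cxcr2, Elane and Mpo were not highest in DMSO replicate 2, and Csf3r was lowest there, at 6.30. Of the 14 genes, 1 measured higher in both TCDD arrays and 2 lower, with the cathelicidin gene Camp, at −0.25, among the lower ones, and the median difference was −0.095. Lyz2 is also a neutrophil gene, and DMSO replicate 2 exceeded DMSO replicate 1 by 0.71 for Lyz2 and by 1.10 for the main Lyz1 probe set. The TCDD arrays measured 5.55 and 5.94 for S100a8, against 5.45 and 8.67 in the DMSO arrays. The part of neutrophils in the lysozyme values was not tested.

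Except for Ciita, MHC class II genes were lowest in DMSO replicate 2. The 6 measured averaged 8.83 and 8.27 in the TCDD arrays, against 8.75 and 7.51 in the DMSO arrays, with a median difference of 0.56, H2-Eb1 at 0.685 and H2-Aa at 0.635. No member was higher in both TCDD arrays and 1 was lower. Dendritic cell markers had the same low array by their mean, at 6.52 and 6.26 in the TCDD arrays, against 6.50 and 6.05 in the DMSO arrays. Their median difference was 0.105 over 14 genes, 3 higher in both TCDD arrays and 2 lower. Among them the transcription factor gene Irf8 differed by 0.775 and Naaa by −0.425. Batf3, Ccl17, Cst3, Flt3, Irf8 and Itgax were lowest in DMSO replicate 2, and the other dendritic cell markers were not.

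B cell markers averaged 5.78 and 5.98 with TCDD, against 5.90 and 5.91 with DMSO, with 0 of 10 higher in both TCDD arrays and 1 lower, a median difference of −0.03, Cd79b at 0.30 and Cd22 at −0.19. NK cell markers averaged 6.38 and 6.67 with TCDD, against 6.36 and 6.86 with DMSO, with 1 of 8 higher and 1 lower, a median difference of −0.02, Gzma at −0.585 and Eomes at −0.26. CD8 T cells also express those last 2 genes. The T cell receptor and CD8 list averaged 8.90 and 9.10 with TCDD, against 9.26 and 9.18 with DMSO. Of its 13 genes 0 measured higher in both TCDD arrays and 4 lower, beside 12.9% and 12.0% of all genes. The median difference was −0.07, with Cd8a at −0.73 and Thy1 at −0.70. Limma called 0 genes in any of these 7 marker lists. At an unadjusted p under 0.05 it counted 1 of the monocyte and macrophage markers, Lgals3, and 2 of the T cell genes, Cd8a and Thy1. The share over all genes was 2.11%.

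**Figure D3:**
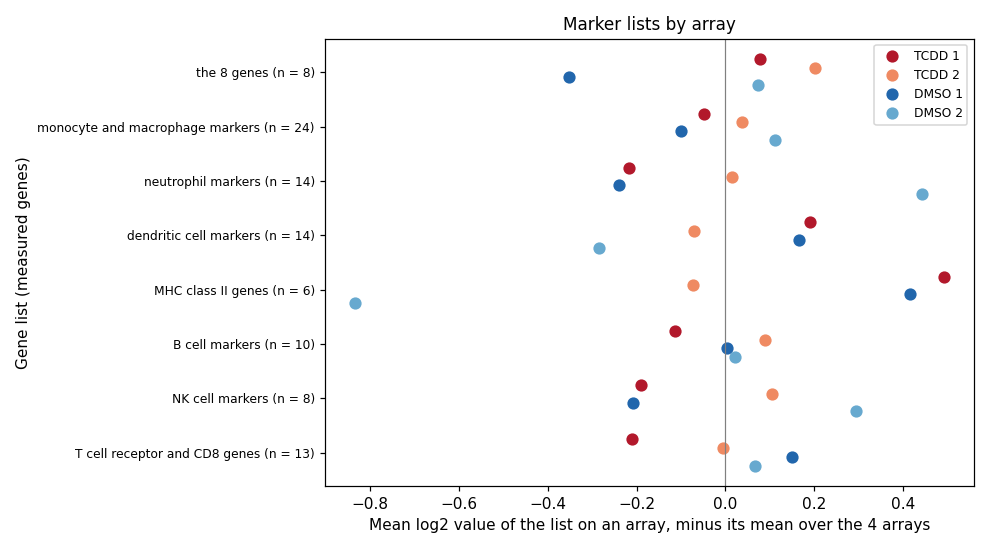
Mean log2 value of each marker list on an array minus the list's mean over the 4 arrays (horizontal axis), for the 8 genes and 7 lists of cell type markers, with TCDD arrays in red and orange and DMSO arrays in blue. The mean of the 8 genes is lowest in DMSO replicate 1, at 6.08 against 6.50 to 6.63 in the other arrays. By main probe set, Lyz1, Lyz2, Csf1r and Tyrobp are lowest in that array, Itgam, Cd14 and Fcer1g in TCDD replicate 1, and Cd68 in DMSO replicate 2. The other Csf1r probe sets are lowest in TCDD replicate 1, and the unmarked Lyz1 probe set in DMSO replicate 2. The mean of the neutrophil markers is highest and that of the MHC class II genes lowest in DMSO replicate 2.

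The genes with profiles most like those of Lyz1, Lyz2 and Csf1r, the 3 genes of the set that ranged over more than 1 log2 unit, were found by the root mean square distance between centred profiles over the 4 arrays, among 7384 other genes above the median. The nearest to Lyz2 was Tshz1, which encodes a zinc finger homeobox factor, at a distance of 0.066. It measured 8.76 and 8.60 with TCDD, against 7.90 and 8.48 with DMSO, with DMSO replicate 1 again the low array. Atf2, of the ATF and CREB factors, and Crebrf, a regulator of CREB3, followed at 0.161 and 0.167. For Lyz1 the nearest were Tshz1 at 0.365, Bbip1 at 0.400 and Afp at 0.415, all farther than Lyz2 itself at 0.311. For Csf1r they were the probe set annotated to Airn at 0.202, the calcium-binding protein gene S100a6 at 0.209 and Cd5l at 0.231. CD5L is a secreted protein of tissue macrophages, and Cd5l measured 5.97 and 6.50 with TCDD, against 5.73 and 6.93 with DMSO, high in the arrays numbered 2 like the main probe set of Csf1r. The other Csf1r probe sets, 1419873_s_at and 1423593_a_at, ranged over only 0.37 and 0.16 across the 4 arrays. Over so few arrays the distances are a description.

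**Figure D4:**
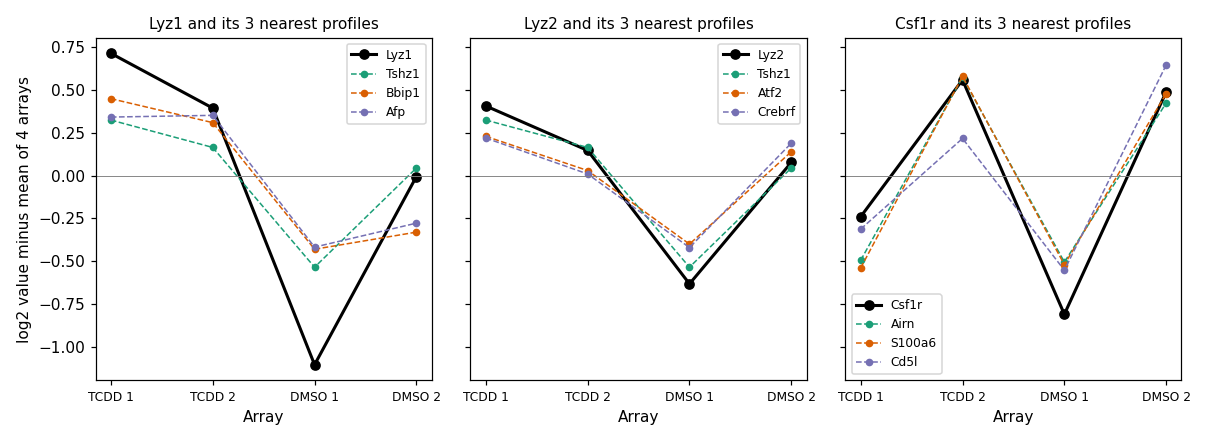
Log2 values minus the mean over the 4 arrays (vertical axis) on each array, for Lyz1, Lyz2 and Csf1r (black) and the 3 nearest genes of each (coloured, dashed). The lysozyme profiles dip in DMSO replicate 1, while that of Csf1r is high in both arrays numbered 2, at 8.72 with TCDD and 8.65 with DMSO.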

How the data were processed

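The authors deposited log2 values for the 4 arrays, made with RMA per the submitters' processing notes (RMA version: not given in the sources used here). That they are log2 follows from their range, 3.09 to 14.62. Of 22690 probe sets 64 Affymetrix controls were left out. Names came from the platform annotation, updated through Entrez identifiers in RefSeq (GRCm38.p6): 20380 probe sets had 1 symbol, 691 several and 1555 none here.

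TCDD minus DMSO was fitted with lmFit and eBayes of limma 3.58.1 (R 4.3.3, with neither covariate nor filter, Benjamini-Hochberg over 22626 probe sets, threshold 0.05). Limits are 95% limits of that fit. With 2 arrays in each group the smallest two-sided p of an exact permutation test is 0.3333, so none was run. The fit was tested on simulated data.

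The members and the 12 gene lists were chosen with earlier results of these data known. Named were all members, the 2 genes of each list with the largest difference in size among those above the median of all probe sets, and the 3 nearest profiles of each member ranging over more than 1 log2 unit. Other genes named were chosen after their values were seen. Promoters were aligned with Biopython 1.88. Alternatives covered scaling, filters, the variance model, the probe sets used, a replicate block and each array left out.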

Additional observations from a re-analysis of the deposited data

How the results depend on the processing

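With all 4 arrays, 8 alternatives were run (61 values: centring on the median, a second quantile normalisation, low values filtered below the 25th percentile or below the median, a variance trend with robust fitting, _x_at and _s_at probe sets left out, gene means, the replicate block), and limma called 0 members and 0 probe sets. The filters, the variance model and the block cannot change a difference of group means, and centring shifts all genes alike. Only quantile normalisation and the choice of probe sets could thus turn the sign of a single gene. The choice of probe sets could change only Lyz1 and Csf1r, as each other member has a single probe set. The main probe set of Csf1r is unmarked and stayed at 0.32, and the mean of all Csf1r probe sets gave 0.08. Its other probe sets, at −0.07 and −0.015, had the opposite sign. No member changed between positive and negative in these alternatives, and Itgam, at 0, was −0.01 after quantile normalisation. The filters removed Itgam, and at the median Cd68 too, so the median over the 8 genes was not computed there. Lyz1 was at 0.10 without the _x_at probe sets. With each array left out, Csf1r ran from −0.33 to 0.97, Cd14 from −0.035 to 0.145, Itgam from −0.095 to 0.095, Lyz1 from 0.56 to 1.66, Lyz2 from 0.20 to 0.91, Fcer1g from −0.295 to −0.005, the median of the 8 genes from 0.02 to 0.23, and the members higher in all TCDD arrays, chosen after seeing the data, from 3 to 7. A lone array is assumed to vary like the other group, and the cause of these shifts was not tested. Same-numbered arrays deviated together (r = 0.23 across probe sets), but with 2 pairs the numbers are not shown to pair them. The replicate block gave 0 calls, 612 probe sets at an unadjusted p under 0.05 against 439, and for Lyz1 a limma p of 0.0637 (adjusted p = 0.994), so that 0 members were under 0.05.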
